A study of Mus musculus with 4 samples.

Results

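Nonclassical monocytes of the mouse heart were selected from single-cell libraries of cardiac leukocytes by their messenger RNA. A cell was a member when it carried at least 3 unique molecular identifiers (UMIs, counts of captured mRNA molecules) of Ace, Treml4 and Eno3 together and at least 1 UMI of Csf1r. It also had to carry at most 7 UMIs of the complement C1q genes, at most 1 of the Cd3 genes and at most 2 of Cd79a, Cd79b and Ms4a1. The gate held 197 of 11148 cells, 90 of 4118 from sham mice and 107 of 7030 from DOCA-salt mice.

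The mice were C57Bl6J, and CD45+ leukocytes of the left ventricle were enriched with beads, stained with hashtag and surface antibodies and sorted as live single cells. The first library pooled 4 sham mice and the other pooled 4 mice given DOCA-salt, a model of hypertension that combines the mineralocorticoid deoxycorticosterone acetate with salt. The hashtag of each cell gave its mouse. Because each group was 1 library, the treatment cannot be told apart from the library, and every p-value for sham against DOCA-salt compares mice of 1 library with mice of the other.

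Monocytes are white cells of the blood that share a growth factor receptor, encoded by Csf1r, with macrophages. Classical monocytes (Ly6c-high) leave the blood for inflamed tissue. Nonclassical monocytes (Ly6c-low) mostly arise from them under the transcription factor encoded by Nr4a1, are long-lived, and crawl along the inner surface of vessels, also in the heart. They carry angiotensin-converting enzyme, encoded by Ace, which makes angiotensin II and is one of the gate's genes.

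A marker sum of at least 3 was found in 100 sham and 131 DOCA-salt cells, of which 90 and 107 met the other limits. Ace, Treml4 (a receptor of the TREM family) and Eno3 (an enolase of glycolysis) were the genes of the choice, so their levels are a description. Of all Ace UMIs in assigned cells, 81.7% in sham and 82.9% in DOCA-salt lay in the members. Of Treml4 UMIs 80.4% and 76.0% did, and of Eno3 UMIs only 64.2% and 43.1%. Levels below are CPM, a gene's UMIs per 1e6 UMIs of these cells in that mouse. Ace stood at 958 ± 73.8 CPM (SD, n = 4) in sham and 949 ± 174 in DOCA-salt, Treml4 at 591 ± 90.1 and 627 ± 90.0, and Eno3 at 595 ± 47.2 and 378 ± 167.

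The label was checked on genes that the gate did not use. Ear2, a ribonuclease known as a marker of Ly6c-low monocytes, stood at 615 CPM in sham and 548 in DOCA-salt members. In classical monocytes, macrophages and B cells, selected mainly by other genes, it stood at 17.7 CPM or less. Classical monocytes and macrophages were also held to at most 2 UMIs of Ace, Treml4 and Eno3 together. The contrast of Ear2 and the genes below with those classes is thus not independent of the gate. A UMI of Ear2 was found in 66.7% of sham members (exact 95% interval 55.9 to 76.3%) and in 0.512% of sham B cells, which should lack it, and in 75.7% (66.5 to 83.5%) and 0.251% in DOCA-salt. Median depth was 3717 UMIs in sham members and 2661 in sham B cells, and 4305 and 2979 in DOCA-salt. These intervals cover counting error only.

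Nr4a1 reached 1419 CPM in sham members and 1284 CPM in DOCA-salt members, against 337 CPM or less in the other 3 classes. Adgre4, an adhesion receptor, stood at 500.3 and 482 CPM, and Fcgr4, an Fc receptor for IgG, at 458 and 421 CPM. Cd300e, an activating receptor of monocytes, stood at 510.0 and 319 CPM and at 1.13 CPM or less elsewhere. Cx3cr1, the fractalkine receptor, did not separate the members, at 304 and 346 CPM against 453 and 311 CPM in macrophages. Among classical genes, Ly6c2 stood at 35.3 and 105 CPM in members and at 1409 and 1516 CPM in classical monocytes, and Fn1 (fibronectin) at 26.5 and 101 CPM against 1297 and 1401 CPM. Ly6c2 was also used to choose the classical cells. Of the 13 genes of the classical list, Clec4e alone was higher in members, at 159 and 193 CPM against 138 and 166 CPM. Mgst1 and Mcemp1 were lower in members by smaller factors than Ly6c2 and Fn1. The macrophage genes Lyve1, Cd163 and Mertk had at most 3 UMIs in either group of members, and Timd4 had 0.

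**Figure D1:**
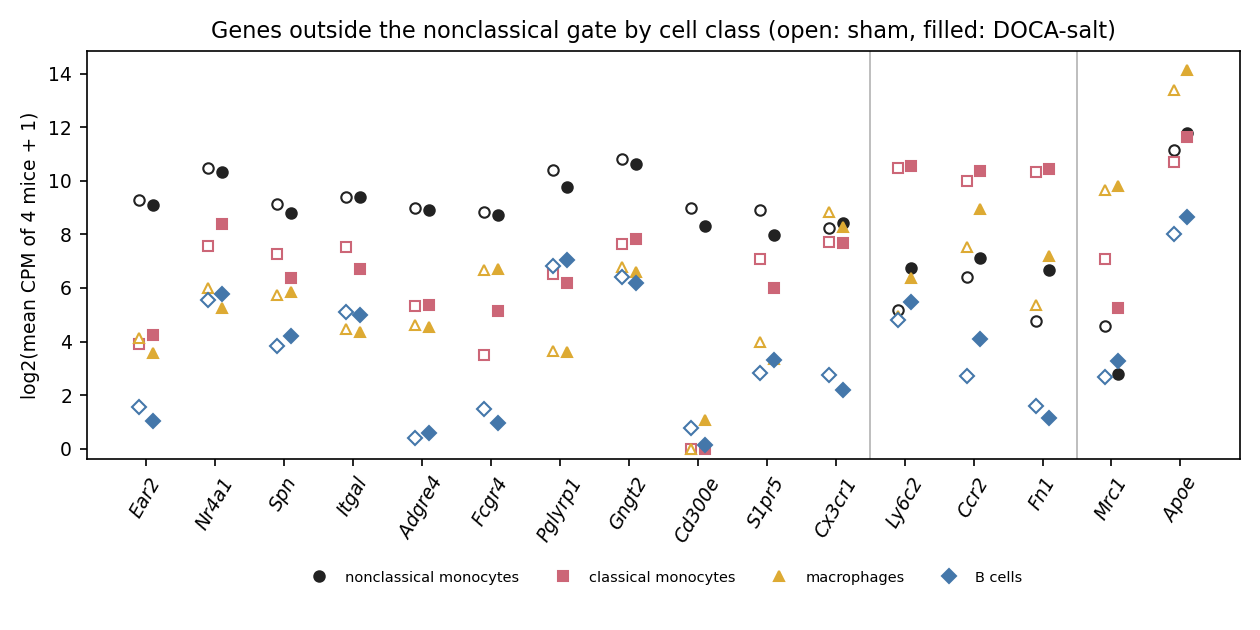
Mean level over 4 mice of genes outside the nonclassical gate, as log2(CPM + 1), in nonclassical monocytes, classical monocytes, macrophages and B cells. The left block holds nonclassical genes, the middle block classical genes (Ly6c2 and Ccr2 were used to choose the classical cells) and the right block macrophage genes, and Ear2, Nr4a1, Adgre4, Fcgr4 and Cd300e are highest in the nonclassical monocytes.

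Just inside the limit, with a marker sum of 3, stood 12 sham and 8 DOCA-salt cells, and just outside, with a sum of 2, stood 10 and 14. In sham, Ear2 was found in 50% of the cells on either side, at 702 CPM inside and 232 CPM outside. In DOCA-salt it was found in 62.5% inside and 28.6% outside, at 408 and 96.5 CPM. The classical genes Ly6c2 or Ccr2 gave a UMI in 16.7% (sham) and 37.5% (DOCA-salt) of cells with a sum of 3, and in 40.0 and 64.3% of those with a sum of 2. At a sum of 4, also inside, stood 7 sham cells, 42.9% with Ly6c2 or Ccr2 and 71.4% with Ear2, and 11 DOCA-salt cells, 54.5% and 36.4%.

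Markers of other cell types were summed per mouse. The 15 macrophage genes, which include Apoe, reached 2353 to 3329 CPM in the sham mice (median 2857) and 3084 to 6261 CPM in the DOCA-salt mice (median 3486), with Apoe alone at means of 2265 and 3486 CPM. None of the 3 of them with enough counts passed between the groups. Of 9 T cell genes, Cd4, Cd8a and Tcf7 had no UMI in the members. The summed level of the 9 was 0 to 81.7 CPM in the sham mice and 0 to 74.7 CPM in the DOCA-salt mice. The neutrophil genes Ly6g, Camp and Ltf also had no UMI. The summed level of 10 neutrophil genes was 19.2 to 65.4 CPM in the sham mice and 137 to 1483 CPM in the DOCA-salt mice. S100a8 or S100a9 was found in 0 sham and 17 DOCA-salt members. In DOCA-salt, S100a8 was found in 13.1% of members (exact 95% interval 7.34 to 20.98%) and in 6.35% of B cells, which should lack it, and S100a9 in 5.61% of members and 6.85% of B cells. The share with S100a9 was thus at the background level. In DOCA-salt mouse 1, the highest cell held 55 of the 58 S100a8 UMIs of its members, and 65 of the 66 S100a9 UMIs also lay in 1 cell. The summed level of 7 natural killer (NK) cell genes ran from 9.05 to 1912 CPM in sham and from 32.5 to 789.6 CPM in DOCA-salt. Counts of called genes without the 17 cells are given below, and the part of NK transcripts in the results was not tested.

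Between the libraries 41 barcodes were shared. They held 5 member cells, and 1 barcode was a member in both.

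Cells of the members held a median of 3756 ± 284 UMIs per cell (mean of 4 mouse medians ± SD) in sham and 4428 ± 573 in DOCA-salt, and the difference did not pass (exact two-sided permutation test over mice, p = 0.114). The median marker sum was 6.75 ± 0.957 and 9 ± 1.83 (exact p = 0.143). Summed over its cells, a mouse gave 52073 to 110532 UMIs in sham and 65806 to 187439 in DOCA-salt.

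The first comparison asked whether nonclassical monocytes took a different share of heart leukocytes after DOCA-salt. Sham mice 1 to 4 held 32, 27, 15 and 16 members, which were 3.26, 2.22, 2.39 and 1.24% of their assigned cells. DOCA-salt mice 1 to 4 held 23, 35, 13 and 36, or 1.04, 1.83, 1.67 and 1.69%. The groups overlapped, since sham mouse 4 lay below 3 of the DOCA-salt mice. The mean was 2.28 ± 0.828% in sham and 1.56 ± 0.353% in DOCA-salt (SD, n = 4), and the difference of -0.72 percentage points did not pass (exact two-sided permutation test, p = 0.171, adjusted over 2 shares 0.171, smallest possible p 0.0286).

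Among cells with a Csf1r UMI, which are mainly monocytes and macrophages, the share was 36.8, 18.9, 18.3 and 12.2% in the sham mice. It was 5.46, 13.8, 12.6 and 13.2% in the DOCA-salt mice. The means were 21.5 ± 10.6% and 11.3 ± 3.90%, and this difference did not pass either (exact permutation p = 0.114, adjusted 0.171). Sham mouse 1 had the highest share by both measures. Without it the differences were -0.39 and -5.19 percentage points, against -0.72 and -10.3 with all mice.

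**Figure D2:**
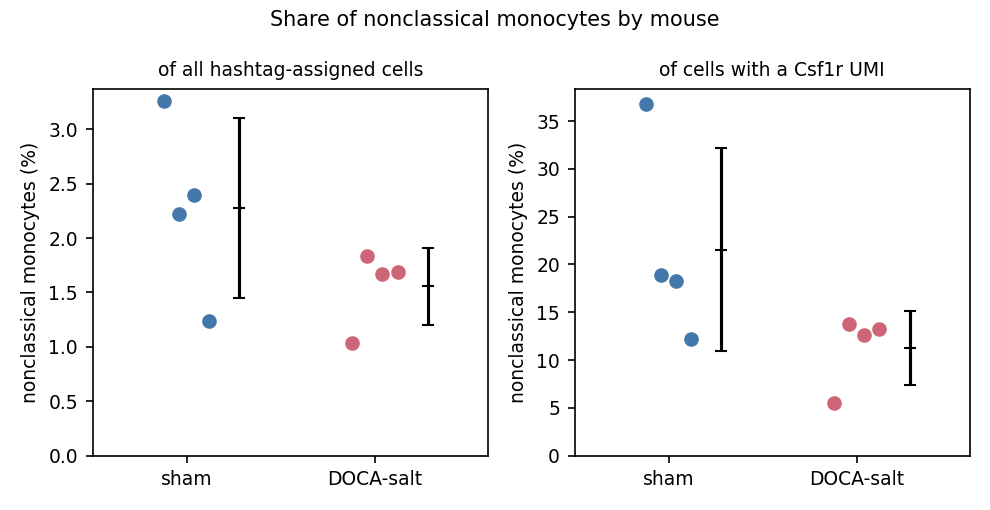
Share of nonclassical monocytes by mouse, as percent of all hashtag-assigned cells (left) and of cells with a Csf1r UMI (right). Each point is 1 mouse, and the bar beside each group is the mean ± SD of 4 mice. On the left the sham mice run from 1.24 to 3.26% and the DOCA-salt mice from 1.04 to 1.83%.

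Transcription inside the members differed between the groups in a limited set of genes. UMIs were summed per mouse and tested with edgeR's quasi-likelihood method, and p-values were adjusted over all 1666 genes with enough counts (Benjamini-Hochberg, threshold 0.05). The test called 35 genes, or 2.1% of those tested, 12 of them higher (0.72%) and 23 lower (1.38%) in DOCA-salt. At an unadjusted p under 0.05 stood 207 genes, and the median log2 change of all genes tested was -0.0067. In 32 of the 35 called genes the 4 and 4 mice did not overlap, against 8.58% of all genes tested. The calls were made on the same mice and favour such genes, so this adds no separate support.

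Of the called genes 10, of which 4 were higher and 6 lower, passed again in each of the 8 fits that left out 1 mouse. These were Chil3, Hp, Tgfbi and S100a6, and Ddit4, Tsc22d3, Btg1, Malat1, H2-K1 and Ly6i. The other 25 lost the call without at least 1 mouse. Without sham mouse 2 only 11 of the 35 were called, without sham mouse 4 only 14, without DOCA-salt mouse 3 only 18, without DOCA-salt mouse 2 only 20 and without DOCA-salt mouse 4 only 21. All kept their sign in each of these fits.

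The rise with the highest fold was in Chil3 (chr3:106147554-106167564, minus strand, mm10), which encodes the secreted chitinase-like protein Ym1 and is a gene of classical monocytes and alternatively activated macrophages. Chil3 had 0, 0, 3 and 1 UMIs in the sham mice, or 0, 0, 49.0 and 19.2 CPM. It stood at 609.7, 748, 699 and 726 CPM in the DOCA-salt mice, from 364 UMIs. The 4 DOCA-salt mice lay close together and far above the sham mice. The fitted log2 change was 5.65 ± 0.40 (SE; edgeR adjusted p = 3.62e-10), a size that depends on the fit's prior count because 2 sham mice were at 0. Chil4, a near-identical neighbour whose reads could be mixed up with those of Chil3, had no UMI in the members.

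Chil3 was carried by a part of the cells. It was found in 38 of 107 DOCA-salt members (35.5%, exact 95% interval 26.5 to 45.4%) and in 3 of 90 sham members (3.33%, 0.69 to 9.43%). By mouse, 9 of 23, 8 of 35, 6 of 13 and 15 of 36 DOCA-salt members carried it. A single cell held 28 of the 67, 48 of the 115, 14 of the 46 and 55 of the 136 Chil3 UMIs of DOCA-salt mice 1 to 4. The level of each mouse thus rested on few cells. With every cell thinned to 2000 UMIs the shares were 32.3% of 96 cells and 1.37% of 73, with 11 DOCA-salt and 17 sham members too shallow to enter. In B cells, which should lack it, a UMI was found in 2.69% of DOCA-salt and 0.14% of sham cells, and in 1.92 and 0% after thinning. The share in members was therefore above the level in B cells in DOCA-salt.

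In DOCA-salt, members with Chil3 had a median marker sum of 10 and those without had 8. Ly6c2 or Ccr2 was found in 17 of the 38 members with Chil3 (44.7%) and in 15 of the 69 without (21.7%). The median depth was 5222 UMIs in the former and 3893 in the latter, and its part in this difference was not tested. Of the 75 DOCA-salt members with neither Ly6c2 nor Ccr2, 21 (28.0%) carried Chil3, against 1 of 72 in sham (1.39%). These 75 cells held 99 of the 364 Chil3 UMIs. The other 265 lay in the 32 DOCA-salt members with Ly6c2 or Ccr2, so most of the summed level came from those.

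Chil3 was also higher in the other classes of DOCA-salt hearts, at 185 and 3220 CPM in classical monocytes and 0 and 82.3 CPM in macrophages. The difference of its change from that in macrophages did not pass (log2 difference -2.30 ± 2.64, edgeR adjusted p = 0.866), nor did that from B cells (1.63 ± 1.51, adjusted p = 0.753). Both standard errors are wide.

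Hp, which encodes the haemoglobin-binding protein haptoglobin, was the other classical monocyte gene that rose. It stood at 90.5, 136, 98.1 and 96.0 CPM in sham and at 255, 468, 517 and 464 CPM in DOCA-salt, with DOCA-salt mouse 1 lowest of its group and still above each sham mouse. The log2 change was 1.97 ± 0.27 (edgeR adjusted p = 4.41e-05), and the cells with a UMI were 24.4 and 57.9%, or 12.3 and 43.8% after thinning to 2000 UMIs (B cells 0.11 and 1.04%). Of 13 classical monocyte genes 5 had enough counts, 2 rose and none fell, and their median log2 change was 0.50. The 3 that did not pass were Ccr2 (0.50, adjusted p = 0.701), Clec4e (0.28, 0.743) and Mgst1 (0.26, 0.690). This list and those below were chosen with earlier results of these data known, and no list was tested as a set. Over all 1666 genes tested 0.72% rose, 1.38% fell and the median log2 change was -0.0067.

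Promoter sequence is shown for the called genes with the largest rise and the largest fall. Each is the 250 bases before the RefSeq start (GRCm38.p6, minus strand for both), at chr3:106167565-106167814 for Chil3 and chr10:59951771-59952020 for Ddit4. Capitals mark matches to the C/EBP core TTNCNNAA or, on the other strand, TTNNGNAA.
Chil3: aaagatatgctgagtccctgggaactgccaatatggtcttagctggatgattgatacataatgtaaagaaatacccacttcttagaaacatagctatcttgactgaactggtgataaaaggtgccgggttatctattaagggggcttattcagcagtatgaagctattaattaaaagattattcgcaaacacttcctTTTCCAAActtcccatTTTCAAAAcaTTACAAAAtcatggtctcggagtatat
Ddit4: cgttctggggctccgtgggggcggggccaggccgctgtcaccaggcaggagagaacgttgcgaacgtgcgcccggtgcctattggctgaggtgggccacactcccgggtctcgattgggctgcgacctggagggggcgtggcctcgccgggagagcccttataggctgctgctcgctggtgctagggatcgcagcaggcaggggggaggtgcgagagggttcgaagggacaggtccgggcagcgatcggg
The Chil3 window held 3 matches to the C/EBP core and the Ddit4 window none, and 36.8% of 32851 RefSeq promoter windows of this length hold at least 1. The core of the glucocorticoid response element, AGAACA or TGTTCT, was in neither window and is in 16.1% of all windows. G and C made up 36.4% of the Chil3 window and 70% of the Ddit4 window, against a median of 52.4% over all windows. A match is a stretch of letters and shows no binding.

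Of the genes of matrix and fibrosis 3 rose. Tgfbi, which encodes a secreted matrix protein that binds collagen and integrins, stood at 199, 168, 98.1 and 38.4 CPM in sham and at 673, 501, 593 and 507 CPM in DOCA-salt. No mouse of a group reached into the other, and the log2 change was 1.97 ± 0.25 (edgeR adjusted p = 3.74e-05). Tgfb1, the cytokine TGF-beta, stood at 534, 429, 539 and 403 CPM against 874, 741, 821 and 747 CPM (0.71 ± 0.17, adjusted p = 0.0231). Lgals3, the carbohydrate-binding galectin-3, stood at 760.0, 659.6, 752 and 461 CPM against 883, 1197, 1307 and 1056 CPM (0.71 ± 0.17, adjusted p = 0.0268). Again the mice did not overlap, but both genes lost the call without sham mouse 2 and without sham mouse 4, among others (highest edgeR adjusted p = 0.102 for Tgfb1 and 0.111 for Lgals3 with 1 mouse left out). Of 19 genes of the list only 4 were tested, and 3 rose. Tgfbr1, the fourth, changed by -0.12 (adjusted p = 0.895). The antibody against galectin-3 (Gal3), read on the same cells, gave means of 90.2 UMIs per cell in sham and 92.2 in DOCA-salt. Its share of all antibody UMIs did not pass (log2 change -0.10, unadjusted exact permutation p = 0.629). The rise of Lgals3 was thus seen in mRNA and not with this antibody.

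Among the S100 and annexin genes, which encode calcium-binding proteins, 2 rose. S100a6 stood at 534, 366, 801 and 346 CPM in sham and at 1229, 1541, 1261 and 1504 CPM in DOCA-salt (1.44 ± 0.19, edgeR adjusted p = 4.41e-05), without overlap. S100a4, also known as fibroblast-specific protein, rose by 1.04 ± 0.26 (adjusted p = 0.0268), but sham mouse 3 at 572 CPM lay above DOCA-salt mouse 1 at 501 CPM. All 8 tested genes of the 12 S100 and annexin genes had a change above 0, with a median of 0.53, and the call of S100a4 was lost in 6 of the 8 fits without 1 mouse (highest edgeR adjusted p = 0.144). Anxa2 (0.63, adjusted p = 0.089) and Anxa5 (0.51, 0.166) did not.

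The other named genes that rose have varied roles. Ms4a4a, a membrane protein of myeloid cells that is placed with the lipid-associated genes, rose by 1.17 ± 0.24 (edgeR adjusted p = 0.00872), from 219 ± 81.0 to 473 ± 106 CPM (SD, n = 4). Pla2g7, the secreted phospholipase that breaks down platelet-activating factor, rose from 310.3 ± 76.9 to 607 ± 131 CPM (adjusted p = 0.0215). H2afj, a histone variant, rose from 235 ± 67.9 to 437 ± 15.8 CPM (edgeR adjusted p = 0.0268). The mitochondrial phosphate carrier Slc25a3 rose from 329.7 ± 24.1 to 527 ± 63.5 CPM (adjusted p = 0.0443). Of the 8 fits without 1 mouse, H2afj was called in 2 and Slc25a3 in 0.

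Trem2, the receptor in the study's title, was scarce in the members. It had 5 UMIs in sham and 23 in DOCA-salt, too few for the test, or 19.3 ± 21.3 and 38.0 ± 21.4 CPM. Its adaptor Tyrobp was abundant, at 4036 ± 431 and 4485 ± 287 CPM, and did not pass (log2 change 0.14, edgeR adjusted p = 0.672). Apoe, the lipid carrier that macrophages express at high level, did not pass either (0.58 ± 0.20, adjusted p = 0.156), with 5638 CPM in DOCA-salt mouse 3 and 1765 to 2965 CPM in the other 7 mice. Of 21 genes of the TREM2 and lipid-associated list 12 were tested, with a median change of 0.21, and Ms4a4a was the one that passed.

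**Figure D3:**
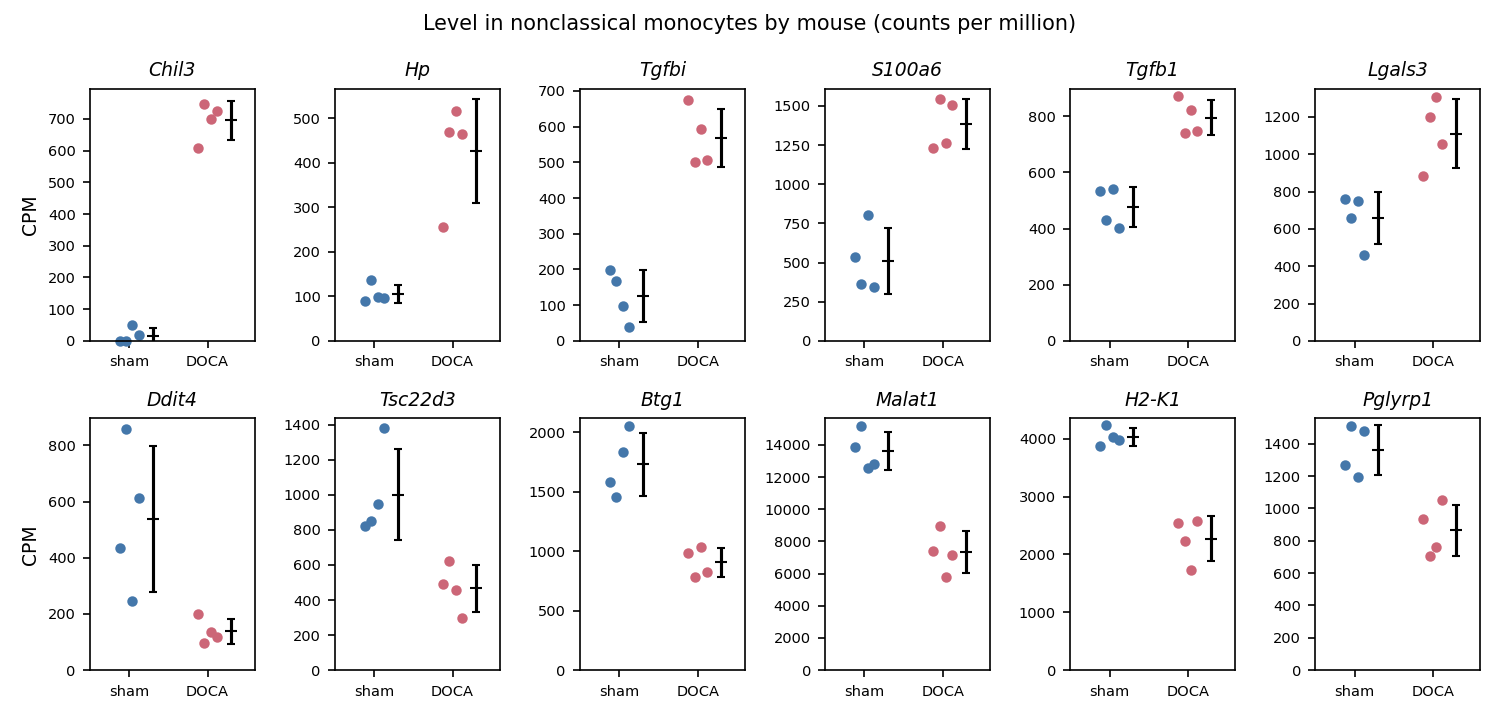
Level in nonclassical monocytes by mouse, in CPM, of 6 genes that rose (top) and 6 that fell (bottom) in DOCA-salt. Each point is 1 mouse and the bar is the mean ± SD of 4 mice, and in all 12 panels the lowest point of one group lies above the highest of the other.

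The largest fall was in Ddit4, a stress-induced inhibitor of the growth-control kinase mTORC1 that glucocorticoids are known to induce. Ddit4 stood at 434, 858, 245 and 615 CPM in sham and at 200.2, 97.5, 137 and 117 CPM in DOCA-salt. Sham mice varied widely, but the lowest of them lay above the highest DOCA-salt mouse, and the log2 change was -2.05 ± 0.30 (edgeR adjusted p = 9.56e-05). Tsc22d3 encodes the glucocorticoid-induced leucine zipper. It stood at 823, 848, 948 and 1383 CPM in sham and at 491, 624, 456 and 299 CPM in DOCA-salt (-1.09 ± 0.21, adjusted p = 0.00389).

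Of 13 genes of the corticosteroid response 7 were tested. These 2 fell, none rose, and the median log2 change was -0.34, with 6 of the 7 below 0. Dusp1, a phosphatase of stress kinases, changed by -0.64 (adjusted p = 0.152), the glucocorticoid receptor gene Nr3c1 by -0.30 (0.701), Zfp36 by -0.34 (0.403) and Cebpd by 0.63 (0.459). Nr3c2, which encodes the mineralocorticoid receptor, is on the list and had 0 UMIs in the members. The hormone levels of the mice were not analysed here.

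Of the genes tied to quiescence and mRNA decay 3 fell. The nuclear long noncoding RNA Malat1 took 13860.2, 15191, 12583 and 12809 CPM in the sham mice and 7435, 8988, 5775 and 7144 CPM in DOCA-salt (-0.90 ± 0.13, edgeR adjusted p = 9.56e-05). Btg1, an antiproliferative factor, stood at 1583, 1455, 1830.3 and 2055 CPM against 983, 787, 1033 and 822 CPM (-0.95 ± 0.15, adjusted p = 0.000409). Neither gene had overlapping mice. Zfp36l1, which binds AU-rich mRNA, fell from 605 ± 119.6 to 315 ± 97.2 CPM (adjusted p = 0.0119). Of 11 genes 8 were tested, these 3 fell, and the median was -0.34.

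Among genes of MHC class I, which shows peptides to CD8 T cells, 1 fell. H2-K1, a class I heavy chain, stood at 3881, 4229.6, 4036 and 3975 CPM in sham and at 2548, 2231, 1732 and 2582 CPM in DOCA-salt, well apart (-0.83 ± 0.13, edgeR adjusted p = 0.00031). H2-D1 changed by -0.39 ± 0.11 (adjusted p = 0.087), also with no overlap of mice, and B2m by -0.34 (0.199). All 10 tested of 11 class I genes had changes below 0, with a median of -0.33, and H2-K1 was the one that passed. Reads of H2-K1 and H2-D1 can be split between these similar genes by the counting. For MHC class II, 5 of 7 genes were tested, none passed and the median was 0.47. H2-Aa ran from 326 to 1291 CPM in sham and from 453 to 3115 CPM in DOCA-salt.

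Of the genes of nonclassical identity outside the gate 5 fell. The list holds 22 genes, 21 were tested, none rose, and 18 had changes below 0, with a median of -0.18. Over all genes tested 1.38% fell and the median change was -0.0067. Pglyrp1, a secreted protein that binds bacterial peptidoglycan, stood at 1267, 1508, 1193 and 1479 CPM in sham and at 937, 709, 759.8 and 1051 CPM in DOCA-salt (-0.66 ± 0.16, edgeR adjusted p = 0.0231). S1pr5, the sphingosine-1-phosphate receptor that these monocytes need to leave the bone marrow, fell by 0.93 ± 0.22 on the log2 scale (adjusted p = 0.0224).

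The fatty acid binding protein gene Fabp4 stood at 403 ± 105 and 216 ± 37.0 CPM (SD, n = 4) in sham and DOCA-salt, Cd300e at 510.0 ± 69.3 and 319 ± 10.7 CPM, and the transcription factor gene Klf2 at 2502 ± 98.4 and 1705 ± 317 CPM. All 5 called genes of the identity list were without overlap between the groups, and each lost its call without sham mouse 2 and without sham mouse 4, among others (highest edgeR adjusted p from 0.130 for Klf2 to 0.240 for Cd300e). None of the 5 calls was left without the members that carried Ly6c2 or Ccr2, where the median of the list was -0.13. Nor was any left with a marker sum of at least 5, with the gate on thinned cells, with thinned members or without a count filter. Nr4a1 (-0.16, adjusted p = 0.717), Ear2 (-0.18, 0.714), Cebpb (-0.35, 0.197) and Spn (-0.31, 0.536) did not pass.

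Among genes of adhesion and migration 17 of 20 were tested, and S1pr5 and L1cam, a cell adhesion molecule, fell. L1cam stood at 188 ± 78.0 and 66.9 ± 25.8 CPM (edgeR adjusted p = 0.0467). The integrin genes Itgal (0.02) and Itgb2 (-0.02) did not pass, and the median of the list was -0.06. Of 11 tested interferon-stimulated genes Ly6i, a GPI-anchored protein of the Ly6 family, fell from 398, 398, 327 and 422 CPM to 237, 58.5, 106 and 181 CPM (-1.41 ± 0.27, adjusted p = 0.00385). The median of the list was -0.07. Ifitm3, an antiviral membrane protein at 3180.1 to 4946 CPM, changed by -0.07 (adjusted p = 0.858).

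Nfkbia, the NF-kappaB inhibitor, fell from 819 ± 215 to 477 ± 66.5 CPM (edgeR adjusted p = 0.0268). It was the one of 6 tested inflammatory genes that passed, and Il1b did not (0.35, adjusted p = 0.701). The further named falls were Fam46a (-1.36), the Notch target Hes1 (-1.31), the importin Kpna4 (-1.10), the receptor gene Cd300ld3 (-0.98) and the mitochondrial leucyl-tRNA synthetase Lars2 (-0.94), the last with overlap between the groups. Ptma, Arhgef1, Gnai2 and the gene model Gm8797 also fell, and the gene model Gm9733 rose. They lay outside the naming rule and are named after their values were seen.

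Beside MHC class II and the marker lists of macrophages (3 of 15 genes tested, median -0.03) and B cells (1 of 10, -0.18), lists with tested genes and no call were glycolysis (7 of 14 measured genes tested, median 0.23), survival (7 of 13, 0.18) and the angiotensin and vasoactive genes (3 of 19 beside Ace, 0.44). Alox5ap, the activator of leukotriene synthesis, stood at 1321 ± 165 and 1829 ± 225 CPM without overlap and did not pass (0.46 ± 0.14, edgeR adjusted p = 0.115). Of 11 tested early response factors Klf2 fell. Of 13 tested Fc and scavenger receptor genes Cd300e fell, while the Fc receptor chain Fcer1g stood at 4915 ± 26.8 and 4895 ± 331 CPM (-0.01, adjusted p = 0.971).

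Counts of called genes were recomputed with narrower gates. Without the 18 sham and 32 DOCA-salt members that carried Ly6c2 or Ccr2, the test called 3 higher and 8 lower genes, all among the 35. These were Hp, Tgfbi and S100a6, and Ddit4, Ly6i, Fam46a, Tsc22d3, Btg1, Lars2, H2-K1 and Malat1. Chil3 was not tested there because it did not pass the count filter. Tgfb1 (log2 change 0.43, edgeR adjusted p = 0.489), Lgals3 (0.42, 0.439), Ms4a4a (0.93, 0.276) and S100a4 (1.03, 0.085) no longer passed. Without the 17 members with S100a8 or S100a9 it called 8 and 14, also all among the 35. With the gate applied to cells thinned to 2000 UMIs, 124 members remained, and Chil3 and Hp were the 2 genes called.

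To see which changes differed from those of neighbouring cells, the change in members was set against the change in 887 macrophages (C1q sum of at least 8) of the same mice, with the mouse as a block. The difference passed in 3 genes, or 0.18% of those tested (edgeR adjusted p = 0.0238 for each; 142 at an unadjusted p under 0.05). Tgfbi rose more in members, by 1.74 ± 0.29 on the log2 scale. In macrophages it stood at 885 CPM in sham and 1137 in DOCA-salt, above the members in both groups. Tgfb1 differed by 1.17 ± 0.21, with macrophages at 467 and 355 CPM. Ly6e, a GPI-anchored protein induced by interferon, differed by -1.20 ± 0.21. Its level in members was 4204 ± 358 and 3115 ± 515 CPM and in macrophages 697 and 1257 CPM. No call of these 3 was left when the top hashtag had to exceed the second by 5 times.

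Against 4936 B cells the difference passed in 15 genes (0.9%; 182 at an unadjusted p under 0.05). Tgfb1 (0.98 ± 0.16, edgeR adjusted p = 0.00259) and Plac8 (0.90 ± 0.16, adjusted p = 0.0026) differed upward. Plac8, a small cysteine-rich protein of myeloid cells, stood at 1172 ± 150.3 and 1726 ± 326 CPM in members and at 251 and 195 CPM in B cells. Of the 13 downward differences those with the largest size were Cd9 (-1.47), Fam46a (-1.34), Ddit4 (-1.18), Fyb (-1.07), Pglyrp1 (-0.95) and Zfp36l1 (-0.91). H2-K1 (-0.64, adjusted p = 0.00937) and Klf2 (-0.70, 0.00937) were among the rest. Under 14 alternatives, the difference of Ddit4 lost its call in 8 (highest edgeR adjusted p = 0.447), those of Fam46a (0.246) and Fyb (0.370) in 6 each, that of Zfp36l1 in 4 (0.211) and that of Cd9 in 1 (0.0665), while Tgfb1, Plac8 and Pglyrp1 kept theirs in all. Of the downward genes, Cd9 (13.3 and 29.1 CPM in sham and DOCA-salt) and Fyb (9.80 and 18.2 CPM) were scarce in B cells and higher there in DOCA-salt. Neither was among the 35 genes called in members, so their differences are not calls of a fall in members.

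Members, macrophages and B cells came from the same mice and libraries, so their changes are given side by side only. Malat1 stood at 15456 and 9577 CPM in sham and DOCA-salt macrophages and at 9909 and 5744 CPM in B cells. The difference of its change in members from these did not pass (log2 difference -0.13 ± 0.21 and -0.13 ± 0.13, edgeR adjusted p = 0.922 and 0.783). Ddit4 stood at 108 and 20.5 CPM in macrophages and at 75.6 and 42.9 CPM in B cells, and Tsc22d3 changed by -1.10 in macrophages and by -0.56 in B cells on the log2 scale. S100a6 changed by 1.52 in macrophages and 0.88 in B cells, S100a4 by 2.05 and 1.49, and Lgals3 by 1.26 and 0.78. Tgfb1, which rose in members, changed by -0.32 and -0.25. Of the 12 higher genes, 11 were also above 0 in macrophages and 10 in B cells. Of the 23 lower genes, 15 were also below 0 in macrophages and 18 in B cells. The share of all 1666 genes tested with the same sign was not counted, so these counts are a description only.

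**Figure D4:**
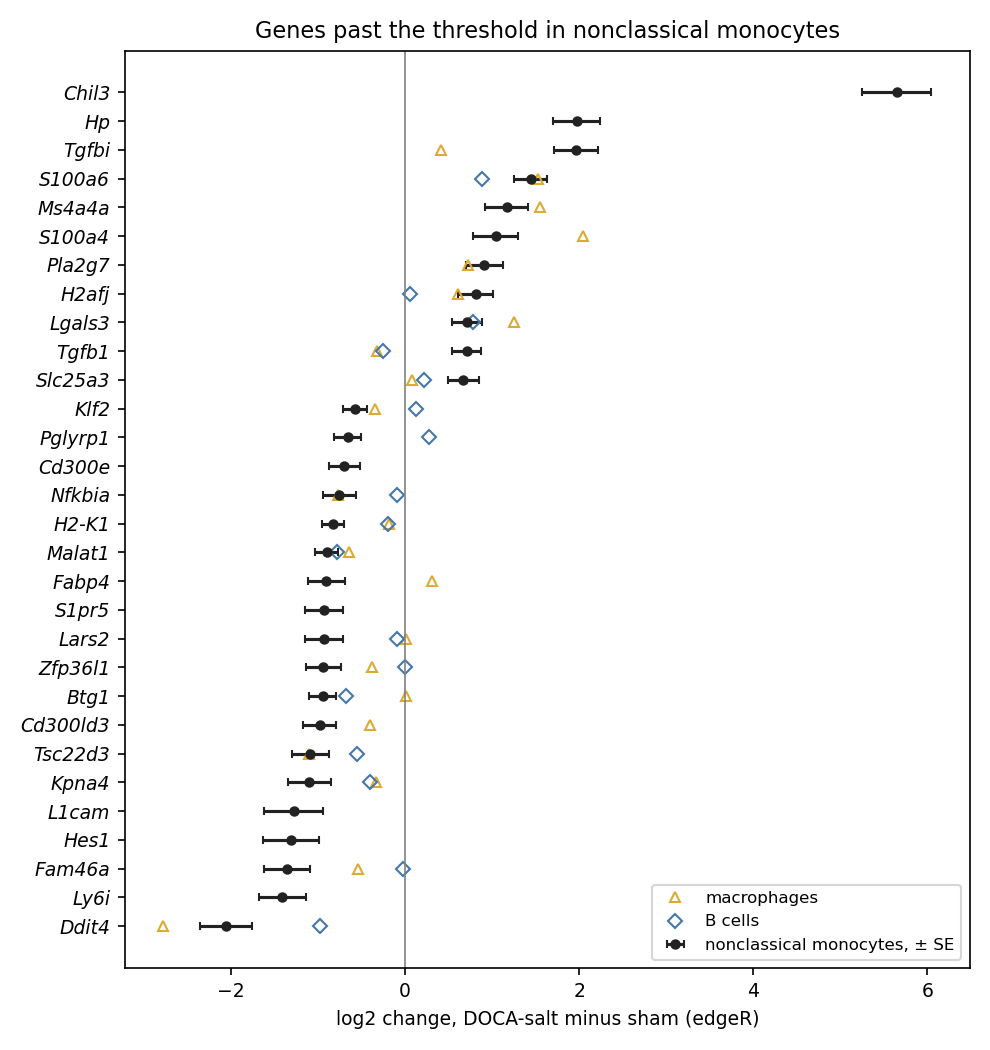
Log2 change from sham to DOCA-salt of the named genes past the threshold in nonclassical monocytes (filled circles, bars ± SE), with the fitted change of the same gene in macrophages (triangles) and B cells (diamonds). Marks of the other classes are drawn where both group means were at least 20 CPM. Tgfbi and Tgfb1 lie to the right of both other classes where these are drawn.

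Surface proteins were read with 16 barcoded antibodies on the same cells. In members, CD11c (an integrin chain that nonclassical monocytes carry) gave 403, 321, 456 and 346 antibody UMIs per cell in the sham mice and 302, 253, 314 and 232 in the DOCA-salt mice. It was the one antibody of 16 (6.25%) without overlap between the groups in UMIs per cell. CD11b, the integrin of myeloid cells, gave 3541 ± 889 and 4549 ± 575 UMIs per cell (SD, n = 4), and CD44, a receptor for hyaluronan, 4516 ± 459.6 and 4796 ± 651.

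As a share of all antibody UMIs, none of the 16 passed between the groups (0.0%). CD11c, CD4, CD8a, PD-1, CCR7 and TIGIT were lower at an unadjusted exact permutation p of 0.0286, the smallest that 4 against 4 mice allow, and at 0.0762 after adjustment over 16. By centred log ratio CD11b (higher, log2 change 0.57) and TIGIT (lower, -0.26) reached that unadjusted p. CD11c did not by that measure (-0.29, unadjusted exact permutation p = 0.2). Each of the antibodies with a lower share in members also had a lower share in DOCA-salt in classical monocytes, macrophages and B cells. CD11c changed there by -0.88, -0.71 and -0.32 on the log2 scale (unadjusted exact permutation p = 0.143, 0.0571 and 0.0286). CD4 was at an unadjusted exact permutation p of 0.0286 in each of these classes. CD4 and CD8a are proteins of T cells, and the transcripts Cd4 and Cd8a were at 0 in the members.

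The antibodies were also compared between members and other classes within each of the 8 mice (exact two-sided sign-flip test, adjusted over 48 tests, smallest possible p 0.00781), a test chosen after the data were seen. Against classical monocytes 5 of 16 (31.2%) differed. CD11c was higher in members in 8 of 8 mice, by 1.99 ± 0.65 (log2 of the share, mean ± SD; adjusted p = 0.0107 by the exact test). CD11b was higher by 0.28 ± 0.26 in 7 of 8 mice (adjusted p = 0.0405). CD64, the high-affinity IgG receptor, was lower in 8 of 8 (-0.83 ± 0.62), as were CD4 and NK1.1. The classical monocyte class also held NK transcripts, with Gzma at 4051 and 1912 CPM in sham and DOCA-salt against 299 and 126 CPM in members, and their part in the NK1.1 difference was not tested.

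Against macrophages all 16 antibodies differed in their share of antibody UMIs (100%), as they did against B cells (100%). Members carried more antibody UMIs per cell than B cells, and of the 13 antibodies with a lower share in members than in B cells, 12 gave more UMIs per cell in members in both groups. CD64, for one, gave 252 ± 78.5 UMIs per cell in sham members and 186 ± 39.4 in sham B cells. Against macrophages no antibody turned in this way. CD64 was lower in members than in macrophages in 8 of 8 mice, with a log2 difference of -2.82 ± 0.47, as were CD39 (an enzyme that degrades extracellular ATP, -2.38 ± 0.54) and CD80 (-1.80 ± 0.35). CD11b was higher by 1.07 ± 0.22, CD11c by 1.05 ± 0.20 and CD44 by 0.88 ± 0.34. In UMIs per cell, CD64 stood at 252 ± 78.5 in sham members and 1257 ± 193 in sham macrophages.

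**Figure D5:**
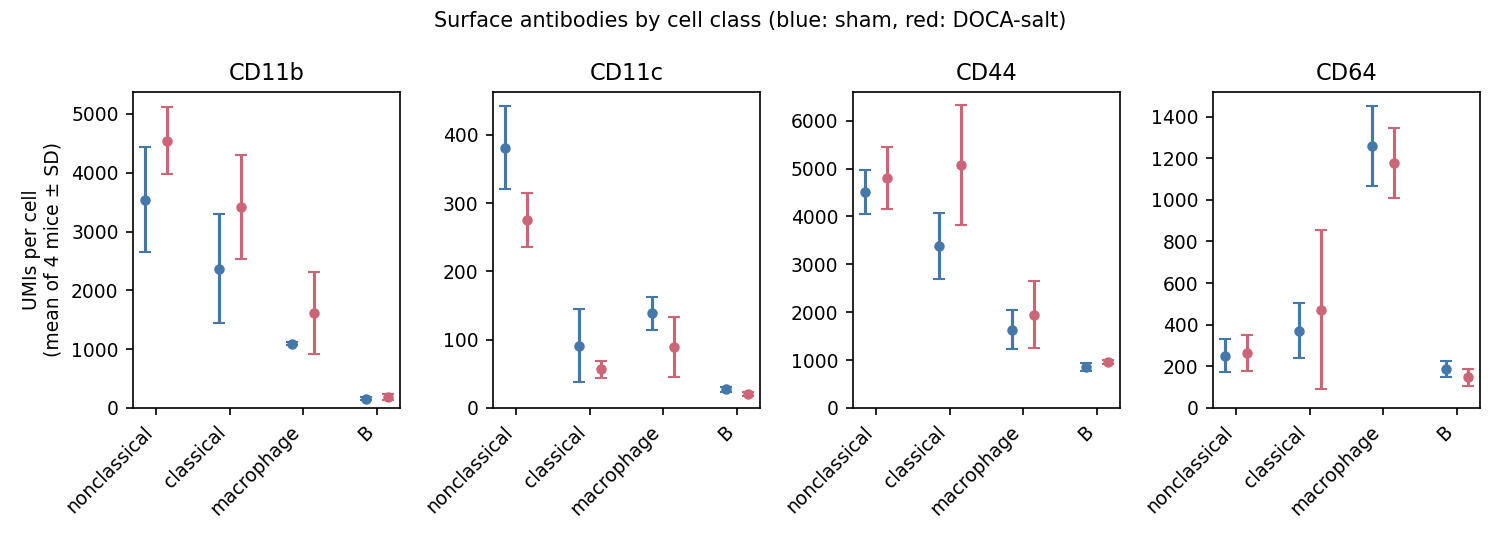
Antibody UMIs per cell for CD11b, CD11c, CD44 and CD64 in 4 cell classes, as the mean of 4 mice ± SD, sham in blue and DOCA-salt in red. CD11c is highest in nonclassical monocytes in both groups, at 381 and 275 UMIs per cell, and CD64 is highest in macrophages.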

How the data were processed

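Cell Ranger 3.1.0 made the deposited counts, per the file headers. Seurat 4 and mm10 are given in the submitters' processing notes, with no role stated. The deposited count matrices of 10x 5′ libraries (polyA RNA, hashtags and 16 antibodies) were used unnormalised, 13304511 RNA UMIs in 4359 sham and 29764964 in 7600 DOCA-salt barcodes. The feature and barcode lists that the authors deposited served for names.

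Cells had at least 200 genes, at most 10% mitochondrial UMIs and a top hashtag at least 2 times the second, a margin that 136 and 321 barcodes failed. Hashtags stood for the 4 mice of a group, which the labels call biological replicates. Scrublet (scanpy 1.11.5) marked 38 and 166 assigned cells as doublets, 1 member in each group, and its calls were used only as an alternative. Classical monocytes had at least 3 UMIs of Ly6c2, Ccr2, F13a1 and Vcan together and a Csf1r UMI, macrophages at least 8 C1q UMIs, B cells at least 5 UMIs of their 3 gate genes. Macrophages also had a Csf1r UMI, and they and the classical monocytes had at most 2 UMIs of Ace, Treml4 and Eno3 together.

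UMIs were summed per mouse and class and fitted with edgeR 4.0.16 (filterByExpr, TMM, quasi-likelihood F test, Benjamini-Hochberg). DESeq2 1.42.0 and limma 3.58.1 were alternatives. Scripts were tested on simulated data. Exact permutation tests over mice used scipy 1.17.1 (two-sided). Positions are from GENCODE M21 (mm10). Log2 changes are edgeR's, levels are plain CPM.

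The members and the 27 gene lists were chosen with earlier results of these data known. Named were up to 12 genes per direction with the largest change past the threshold and a mean of at least 50 CPM (no gene models, ribosomal, mitochondrial, haemoglobin, antigen receptor, Xist, Tsix, Y-linked or gate genes), called members of each list and up to 4 others of highest level, Trem2 and Tyrobp, and up to 6 genes per direction that differed from another class.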

Additional observations from a re-analysis of the deposited data

Results flagged for a closer look

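Single mice stood apart from the other 3 of their group in 9 of 96 groups of 4 mice, where chance gives about 1 in 20. DOCA-salt mouse 1 had a low share of nonclassical monocytes among its Csf1r cells (5.46%), low S100a4 (501 CPM) and high CD39 antibody (386 UMIs per cell). Sham mouse 2 had high Hp (136 CPM) and high Cd300ld3 (1152 CPM), and sham mouse 4 had low H2afj (134 CPM). Sham mouse 3, with 15 members, had high CD8a antibody (64.3 UMIs per cell) and high CD11b antibody (4866 UMIs per cell), and DOCA-salt mouse 4 had high CD4 antibody (25.8 UMIs per cell).

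Some changes differed from those in other cells of the same mice (edgeR, mouse as a block). Against macrophages these were Tgfbi (log2 difference 1.74), Tgfb1 (1.17) and Ly6e (-1.20), each at an adjusted p of 0.0238. Against B cells they were Tgfb1 (0.98, adjusted p = 0.00259), Plac8 (0.90, 0.0026), Cd9 (-1.47, 0.00431), Fam46a (-1.34, 0.0307), Ddit4 (-1.18, 0.0307), Fyb (-1.07, 0.022), Pglyrp1 (-0.95, 0.00259) and Zfp36l1 (-0.91, 0.024).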

How the results depend on the processing

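No paired analysis was possible because a hashtag number names a mouse inside its own library and links no mouse of 1 group with 1 of the other. Both shares stayed lower in DOCA-salt under each alternative run and passed the threshold under none, with differences between -1.06 and -0.39 percentage points of all cells and between -13.4 and -5.19 of Csf1r cells when 1 mouse was left out. Counts of called genes depended on the gate, the depth and the mice. With a marker sum of 5 the counts were 5 higher and 10 lower, and with a sum of 2 there were 14 lower. Applying the gate to thinned cells gave 2 and 0, leaving out cells with Ly6c2 or Ccr2 gave 3 and 8, thinning the member cells to 2000 UMIs gave 4 and 6 of 666 genes tested, and leaving out cells with S100a8 or S100a9 gave 14 lower. Without a count filter 11146 genes were tested, with 33 higher and 12 lower. Leaving out 1 mouse gave 6 to 14 higher and 6 to 25 lower genes, 0 to 6 that differed from macrophages and 4 to 17 that differed from B cells. DESeq2 called 26 genes, of which 25 were among the 35, and limma-voom 37, of which 32 were. The difference from macrophages fell from 3 genes to 0 with a hashtag margin of 5 and rose to 16 without a filter. The cause was not tested, though all but the filter, the marker sum of 2 and the models leave fewer cells or mice. The alternatives on thinned members, on S100a8 or S100a9 and on shared barcodes were chosen after seeing the data. Each called gene that was tested kept its sign in all alternatives, and Chil3 and Hp stayed past the threshold in each one that tested them. With 52073 to 187439 UMIs per mouse, genes below the count filter, Trem2 among them, were not tested.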
